A study of Homo sapiens with 6 samples.

Results

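The miRNA cluster of CLCN5 is a run of 8 microRNA hairpins (miR-532, miR-188, miR-500a, miR-362, miR-501, miR-500b, miR-660 and miR-502) that lie one after another, on the plus strand, inside that gene on chromosome X. Its members were taken by name, as every row of the deposited table whose name begins with 1 of these 8 hairpins, with both the 5p arm (nearer the 5′ end of the hairpin) and the 3p arm (nearer the 3′ end) kept where listed. This gave 12 of the 413 miRNA rows. Both arms were listed for 5 hairpins (miR-500a, miR-500b, miR-501, miR-502 and miR-532) and only the 5p arm for miR-362 and miR-660, while neither arm of miR-188 was listed.

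The data are small RNA reads from an established triple-negative breast cancer cell line, MDA-MB-231. Withaferin A (WA), a steroidal lactone of the plant Withania somnifera, was given at 2 µM for 24 h in 3 samples, and 3 samples served as controls. The labels call these controls untreated, whereas the study describes them as vehicle-treated with DMSO, and they are called vehicle here. All libraries come from a single cell line with no genetic change, and the study calls its 3 replicates of each group independent without saying what separates them, so p-values measure the spread between these libraries. The table holds miRNAs alone, so the cell line could not be checked against protein-coding markers.

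A microRNA is cut from a hairpin in the nucleus by Drosha and trimmed in the cytoplasm by Dicer into a short duplex. Usually the strand from 1 arm is loaded into an Argonaute protein more often than the other, and bases 2 to 8 of the loaded strand, the seed, pair with target messages. Hairpins of a cluster can be made from a shared primary transcript, while each hairpin is processed and each arm is retained at its own rate. CLCN5 encodes a chloride and proton exchanger of endosomes, and its loss causes Dent disease of the kidney.

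In GENCODE release 44 (GRCh38), CLCN5 (ENSG00000171365) spans chrX:49922596-50099235. The 8 hairpins run from chrX:50003148 (MIR532) to chrX:50014683 (MIR502), over 11.5 kb, in the order MIR532, MIR188, MIR500A, MIR362, MIR501, MIR500B, MIR660 and MIR502. Each is spanned by 3 of the 9 annotated CLCN5 transcripts and overlaps an exon in 0 of them, so all 8 are intronic.

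RefSeq (GRCh38.p14) gave a mature sequence for 11 of the 12 arms, all but miR-660-5p. The 5p arms are shown because 5 of the hairpins give 5p strands that share most of their bases. Capitals mark the seed, bases 2 to 8 from the 5′ end.
miR-532-5p: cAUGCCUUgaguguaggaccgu
miR-362-5p: aAUCCUUGgaaccuaggugugagu
miR-500a-5p: uAAUCCUUgcuaccugggugaga
miR-500b-5p: aAUCCUUGcuaccugggu
miR-501-5p: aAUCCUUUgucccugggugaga
miR-502-5p: aUCCUUGCuaucugggugcua

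The 18 bases of miR-500b-5p are bases 2 to 19 of the 23-base miR-500a-5p, with 0 mismatches. miR-362-5p and miR-500b-5p carry the same seed although their sequences differ at 3 of 18 aligned bases, and miR-500a-5p, which starts 1 base earlier, has another seed. The 3p arms are shown because 3 of them differ by few bases, so the division of reads among them could depend on the counting.
miR-500a-3p: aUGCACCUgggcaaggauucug
miR-501-3p: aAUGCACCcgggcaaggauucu
miR-502-3p: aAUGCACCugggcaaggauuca
miR-500b-3p: gCACCCAGgcaaggauucug
miR-532-3p: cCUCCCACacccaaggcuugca

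miR-501-3p and miR-502-3p have the same seed and differ at 2 of 22 bases. miR-500a-3p differs from each of them at 1 of 21 aligned bases. miR-500b-3p, which was not grouped with them, differs from miR-501-3p at 1 of 19, miR-500a-3p at 2 of 20 and miR-502-3p at 3 of 19. Among the 368 rows of the table with a RefSeq sequence, 0 rows outside the cluster share a seed with these 11 arms. The hairpins MIR500A (chrX:50008431-50008514) and MIR500B (chrX:50010672-50010750) are printed with their own mature arms in capitals. They bear on miR-500b-5p, the miRNA of the cluster that the study selected for qRT-PCR.
MIR500A: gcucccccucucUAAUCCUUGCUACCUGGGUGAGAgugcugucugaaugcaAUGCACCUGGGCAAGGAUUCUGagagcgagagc
MIR500B: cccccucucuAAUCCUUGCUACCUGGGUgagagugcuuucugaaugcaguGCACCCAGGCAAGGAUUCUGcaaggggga

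The whole of miR-500a-5p also occurs in MIR500B, at bases 10 to 32, and miR-500b-5p also occurs in MIR500A, at bases 14 to 31. A read of either 5p miRNA can therefore come from either hairpin.

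The values compared are normalized values, the read count of an arm divided by a size factor of its library, both made by the authors. Within a library every value was a multiple of the same step, and numbers of reads given here take 1 step as 1 read. Summed over the 413 listed rows, the vehicle libraries held 710878 to 4778066 reads and the WA libraries held 156442 to 2232934. The study counted more known miRNAs in each group than the 413 it found in both, so these totals are not full sequencing depth. A count of 0 allows up to 3 reads, a normalized value between 0.857 and 17.4 depending on the library, and this limit, like the intervals below, covers counting error only. Taken across the 413 rows on the scale log2(normalized value + 1), vehicle replicates 2 and 3 had a Pearson correlation of 0.987, and vehicle replicate 1 reached 0.785 and 0.792 with them. WA replicates 1 and 2 had one of 0.964, and WA replicate 3 reached 0.630 and 0.641 with them. These correlations run over miRNAs, not over replicates. Vehicle replicate 1 and WA replicate 3 thus stand apart from their groups, and results that rest on them are given with the values found when single libraries were left out. In bulk RNA, fewer cells making a miRNA and less of it per cell cannot be told apart.

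The cluster differed most within the vehicle group. Its 12 arms summed to a normalized value of 2958 in vehicle replicate 1, against 366 and 355 in vehicle replicates 2 and 3, and to 1925, 1688 and 1678 in WA replicates 1 to 3. All WA libraries thus lay above vehicle replicates 2 and 3 and below vehicle replicate 1. As a share of the listed reads the cluster held 0.307% (95% Wilson interval 0.295 to 0.320) in vehicle replicate 1, 0.0268% (0.0254 to 0.0283) in vehicle replicate 2 and 0.0277% (0.0262 to 0.0294) in vehicle replicate 3. In WA replicates 1 to 3 the share was 0.212% (0.191 to 0.236), 0.167% (0.157 to 0.178) and 0.10% (0.0959 to 0.104). miR-532-5p made up 70.1% and 64.7% of the cluster's summed value in vehicle replicates 2 and 3, 12.9% in vehicle replicate 1, and between 27.4% and 41.6% in the WA libraries.

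**Figure D1:**
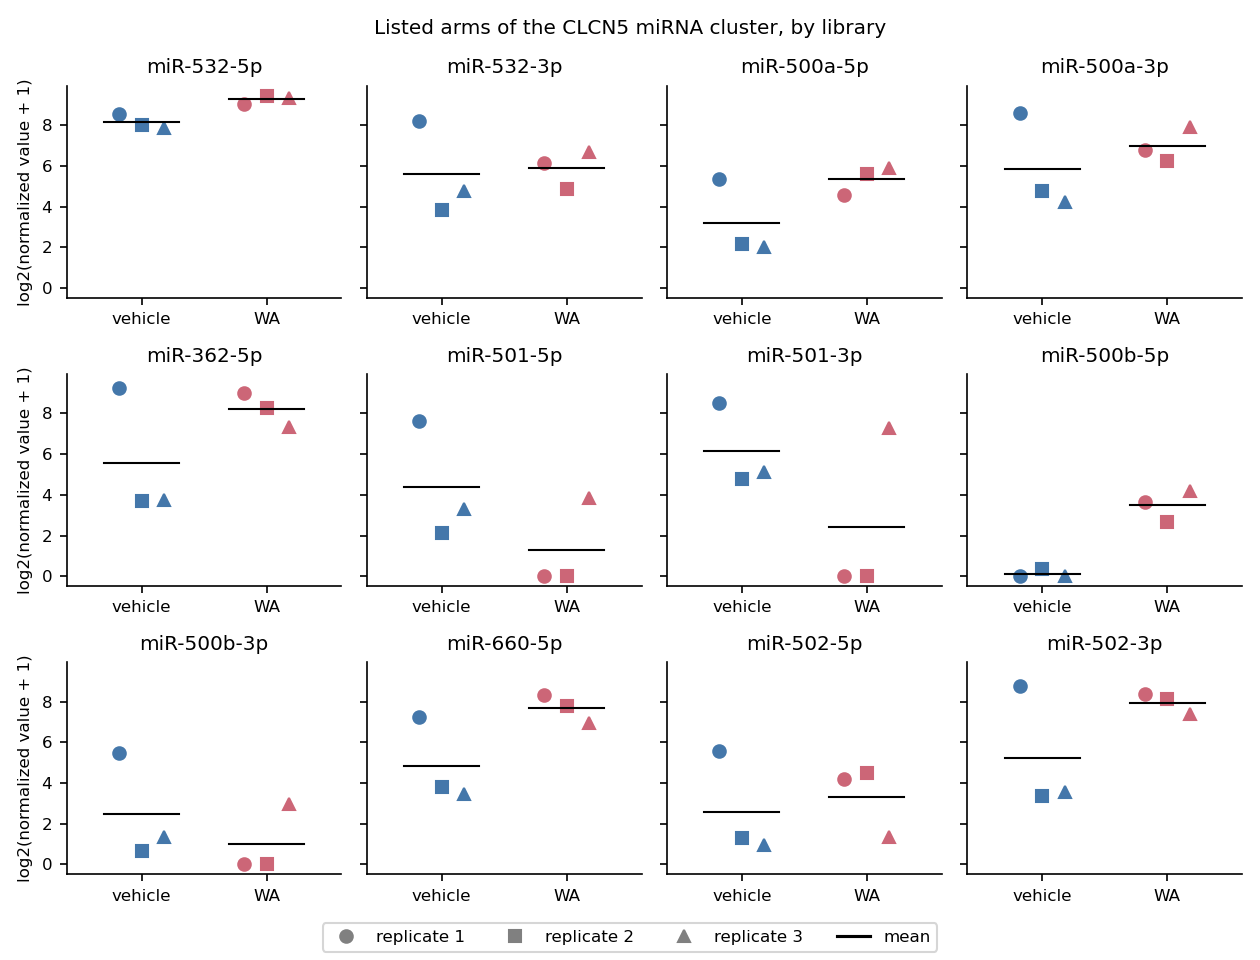
Each panel plots log2(normalized value + 1) of 1 listed arm in the 6 libraries, in the order of the hairpins along CLCN5, with vehicle libraries in blue, WA libraries in red, the replicate number as the symbol and the group mean as a line. For 10 of the 12 arms vehicle replicate 1 (circle) lies far above vehicle replicates 2 and 3. miR-532-5p and miR-500b-5p are the arms whose 3 WA libraries all lie above the 3 vehicle libraries.

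Of the 12 arms, 10 were at least 10-fold higher in vehicle replicate 1 than in the higher of vehicle replicates 2 and 3. Over all 413 rows this held for 30, or 7.26%, and outside the cluster for 20 of 401, or 4.99%. This threshold was set after the values were seen and carries no test. The ratio was 49.2 for miR-362-5p, 40.1 for miR-502-3p, 32.2 for miR-502-5p, 28.4 for miR-500b-3p and 22.3 for miR-501-5p. It lay between 11.0 and 14.7 for miR-501-3p, miR-532-3p, miR-500a-5p, miR-660-5p and miR-500a-3p. It was 1.48 for miR-532-5p, and miR-500b-5p was listed at 0 in vehicle replicate 1. The median ratio was 13.3 over the 12 arms and 0.931 over all rows where it was defined. Vehicle replicate 1 also had the lowest total of its group, 710878 reads, and the part of depth in this excess was not tested.

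**Figure D2:**
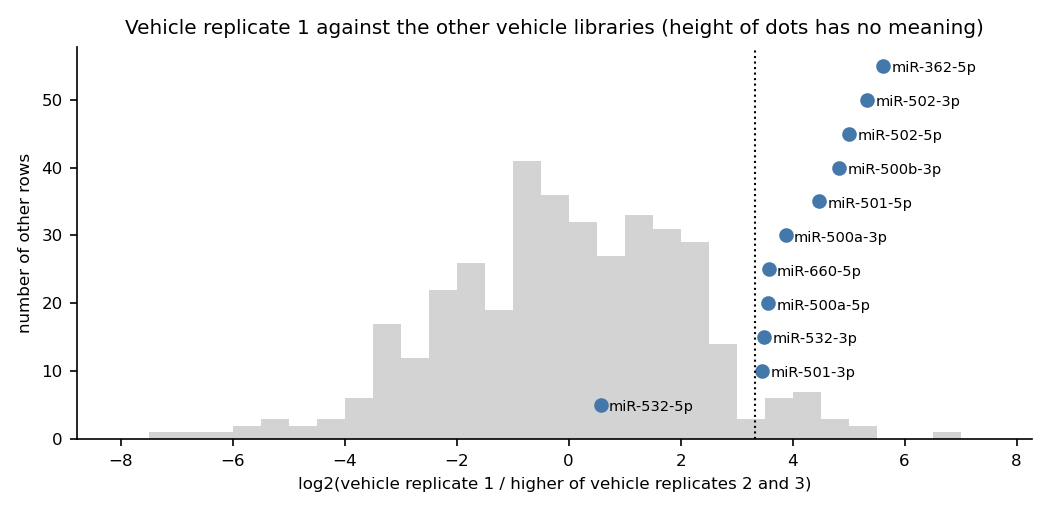
The grey histogram counts the rows outside the cluster by the log2 ratio of vehicle replicate 1 to the higher of vehicle replicates 2 and 3, and blue dots mark the cluster arms at their ratio, at heights chosen for legibility. The dotted line marks 10-fold, past which 10 of the 12 cluster arms lie, and rows listed at 0 in vehicle replicate 1, miR-500b-5p among them, are not drawn.

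The groups were compared, unpaired, by limma on log2(normalized value + 1), fitted over the 327 rows that reached a value of 10 in 3 or more libraries and adjusted over all of them by the Benjamini-Hochberg method. For rows of low value this scale makes changes look smaller than they are. Of the 12 arms, 9 passed this filter, and miR-500b-5p, miR-500b-3p and miR-501-5p did not. None of the 9 passed 0.05 by adjusted p, beside 5.50% of all rows tested, and 0 passed 0.05 by unadjusted p, beside 26.3%. The log2 fold change was above 0 for 8 of the 9 and had a median of 1.13, beside a median of -0.91 over the 327 rows, of which 39.4% were above 0. Vehicle replicate 1 set much of the spread. Without it, 8 of the 9 had every WA library above both vehicle libraries, beside a background of 17.1%, 6 had an unadjusted p under 0.05 with higher values in WA, beside 8.56%, and miR-502-3p alone had an adjusted p under 0.05, beside 6.42% in either direction. Leaving out vehicle replicate 1 was chosen among all single omissions, and the excess in that library was known when these counts were made. With vehicle replicate 1 and WA replicate 3 both left out, which leaves 2 libraries a group, 8 of the 9 were called, 7 of them higher and hsa-miR-501-3p lower with WA. That fit called 71.9% of all rows, 25.4% higher and 46.5% lower. In it the call of hsa-miR-501-3p is a difference from WA libraries listed at 0.

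**Figure D3:**
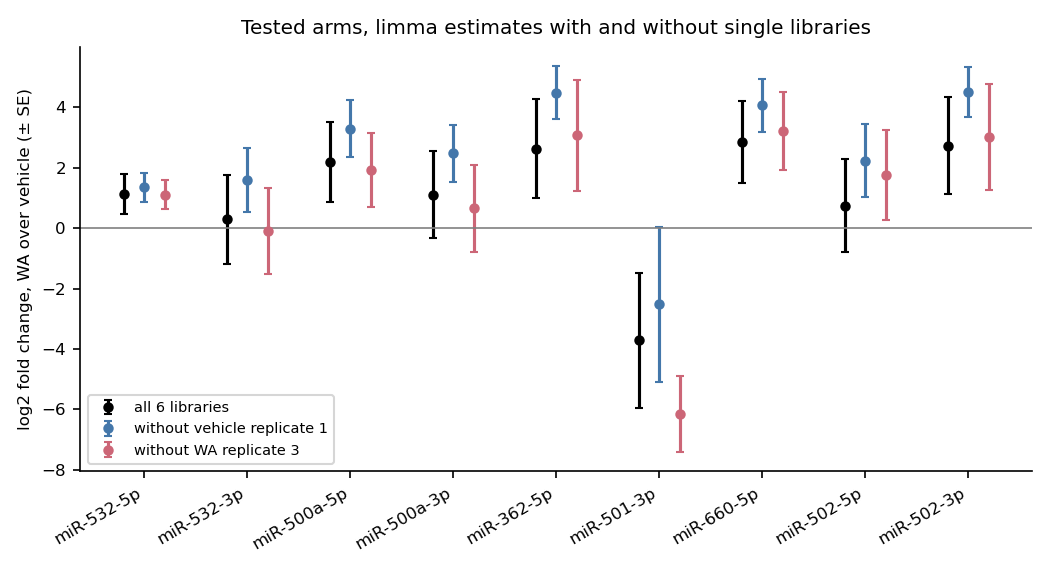
Points are limma log2 fold changes (WA over vehicle) of the 9 tested arms and bars are their standard errors, with all 6 libraries (black), without vehicle replicate 1 (blue) and without WA replicate 3 (red). Without vehicle replicate 1 the estimates of miR-362-5p, miR-502-3p and miR-660-5p rise to between 4.06 and 4.49, while miR-501-3p is below 0 in each of the 3 fits.

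hsa-miR-532-5p, from the first hairpin of the cluster, was its most even arm. Vehicle replicates 1 to 3 gave normalized values of 381, 256 and 230, and WA replicates 1 to 3 gave 528, 702 and 638. All later lists of 3 values keep this order of replicates. Every WA library lay above every vehicle library (two-sided p = 0.1 by an exact permutation test, which cannot go lower with 3 libraries against 3), as held for 7.65% of the rows tested. Means were 289 ± 80.5 (SD, n = 3) in vehicle-treated and 623 ± 88.3 (SD, n = 3) in WA-treated cells, or 2.15-fold. Its log2 fold change of 1.13 (SE 0.67) had a limma adjusted p of 0.330. With libraries scaled by their totals in place of the deposited size factors the groups overlapped, with a log2 fold change of 1.17. These values rest on 91 to 898 reads per library.

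miR-532-3p, from the other arm of this hairpin, had vehicle values of 295, 13.4 and 26.3 and WA values of 69.6, 28.6 and 103. Its highest value was in vehicle replicate 1 and its lowest in vehicle replicate 2, so the groups overlapped. Its log2 fold change of 0.30 (SE 1.47, limma adjusted p = 0.900) turned negative when vehicle replicate 2, vehicle replicate 3 or WA replicate 3 was left out.

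hsa-miR-660-5p had the highest log2 fold change of the 9 with all 6 libraries in the fit. Its vehicle values were 153, 12.9 and 10.1 and its WA values 325, 220 and 122, with vehicle replicate 1 above only WA replicate 3. By limma this was a log2 fold change of 2.85 (SE 1.35) with an adjusted p of 0.226, and of 4.06 (SE 0.89) with an adjusted p of 0.0627 without vehicle replicate 1. Without WA replicate 3, the other library that stands apart, the remaining WA libraries lay above all vehicle libraries, as held for 22.0% of rows in that fit, and the log2 fold change was 3.22 with an adjusted p of 0.0942. Over all single omissions the value lay between 2.16 and 4.06.

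miR-362-5p had vehicle values of 616, 12.0 and 12.5 and WA values of 510, 313 and 160. For miR-502-3p, from the last hairpin of the cluster, these were 429, 9.42 and 10.7 with vehicle and 330, 275 and 166 with WA. For both arms vehicle replicate 1 was the highest of the 6 libraries, the other vehicle libraries were the lowest, and the WA libraries lay between. Over the 6 libraries these arms had a Pearson correlation of 0.996 on the log scale, although their hairpins are separated by MIR501, MIR500B and MIR660. Their log2 fold changes were 2.63 (SE 1.65) and 2.73 (SE 1.60), with limma adjusted p-values of 0.345 and 0.328. Without vehicle replicate 1 they were 4.48 (SE 0.88) and 4.49 (SE 0.82), with adjusted p-values of 0.0531 and 0.0461. Leaving out vehicle replicate 2 instead gave 1.69 and 1.81, the lowest values over the single omissions, over which the adjusted p of miR-502-3p lay between 0.0461 and 0.632.

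miR-502-5p stayed low. Vehicle libraries gave 46.1, 1.43 and 0.917 and WA libraries 17.4, 21.4 and 1.50, on 2 to 34 reads. All 3 WA values lay within the range of the vehicle values. It changed by 0.75 on the log2 scale (SE 1.53, limma adjusted p = 0.754), and by between -0.0805 and 2.23 over the single omissions.

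miR-500a-5p had vehicle values of 40.6, 3.43 and 3.06 and WA values of 23.2, 48.2 and 59.4. Its log2 fold change was 2.20 (SE 1.33, limma adjusted p = 0.332), and 3.29 (SE 0.94, adjusted p = 0.123) without vehicle replicate 1, with 1.61 the lowest value over the single omissions. miR-500a-3p, the more abundant arm, had 386, 26.3 and 18.0 with vehicle and 110, 75.0 and 238 with WA, and a log2 fold change of 1.11 (SE 1.43, adjusted p = 0.617). This value rested on single libraries, since it was 2.47 without vehicle replicate 1, 0.56 without vehicle replicate 2, 0.30 without vehicle replicate 3 and 0.65 without WA replicate 3. For this hairpin too vehicle replicate 1 lay among or above the WA libraries and the other vehicle libraries lay below them all.

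hsa-miR-500b-5p, which the study selected from these same libraries for qRT-PCR, lay under the filter. Its vehicle values were 0, 0.286 and 0 and its WA values 11.6, 5.36 and 17.3. These are 0, 1 and 0 reads against 2, 3 and 23 reads, so only WA replicate 3 was above the 3 reads that a count of 0 allows, and no fold is given. The groups did not overlap, as was the case in this direction for 7.75% of all 413 rows. With no filter its log2 fold change of 3.38 (SE 0.66) had a limma adjusted p of 0.0255, beside 12.8% of rows called, and it was the only member called. That value depends on the pseudocount of 1, because the vehicle libraries are at or near 0.

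Because miR-500b-5p lies within miR-500a-5p, their values were also summed. The vehicle sums were 40.6, 3.71 and 3.06 and the WA sums 34.8, 53.6 and 76.6, so that WA replicate 1 lay below vehicle replicate 1 and the groups overlapped. The log2 fold change of the sum was 2.52 (SE 1.32) with a limma adjusted p of 0.263, beside 5.54% of rows called, and with vehicle replicate 1 and WA replicate 3 both left out it was called beside 71.7% of rows. Of the reads of the pair, miR-500b-5p was given 0 of 30, 1 of 13 and 0 of 10 with vehicle and 2 of 6, 3 of 30 and 23 of 102 with WA. The share was 33.3% (95% Wilson interval 9.68 to 70.0), 10.0% (3.46 to 25.6) and 22.5% (15.5 to 31.6) in WA replicates 1 to 3 and 7.69% (1.37 to 33.3) in vehicle replicate 2, and a count of 0 allows up to 10.0% in vehicle replicate 1 and up to 30% in vehicle replicate 3. The interval of vehicle replicate 2 overlaps those of all 3 WA libraries. The forward primer that the study lists for miR-500b-5p, with the run it shares with miR-500b-5p in capitals, is shown because it bears on which of the pair is read.
miR-500b-5p forward primer: gcagAATCCTTGCTACCTG

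That run of 15 bases is also in miR-500a-5p. Among the other arms of the cluster with a sequence, the longest shared runs were 10 bases with miR-502-5p and 8 bases with miR-362-5p. The study reports that its qRT-PCR bore out the sequencing result for miR-500b-5p. The qRT-PCR values were not analysed here.

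Both arms of miR-501 were listed at 0 in WA replicates 1 and 2, where a count of 0 allows up to 17.4 and 5.36. hsa-miR-501-3p had vehicle values of 370, 26.3 and 33.6, was listed at 0 in WA replicates 1 and 2, and at 153 in WA replicate 3. miR-501-5p was at 198, 3.43 and 8.86, listed at 0 in the same pair of libraries, and at 13.5 in WA replicate 3. miR-500b-3p was at 43.3, 0.571 and 1.53, likewise listed at 0 in this pair, and at 6.76 in WA replicate 3. Of these arms only miR-501-3p lies below every vehicle library in both at these limits. For miR-501-5p the limit in WA replicate 1 is above vehicle replicates 2 and 3. For miR-500b-3p both limits are above those vehicle libraries. Among all miRNAs 142 of 413 rows, or 34.4%, were listed at 0 in both WA replicates 1 and 2, among them these 3 of the 12 arms, and some of those rows are abundant elsewhere, so these arms are given only as listed at 0. By limma miR-501-3p had a log2 fold change of -3.72 (SE 2.22) with an adjusted p of 0.330. Without WA replicate 3 it was -6.14 with an adjusted p of 0.0115, in a fit that called 45.0% of the rows, and it is then a difference from libraries listed at 0. Over the single omissions its adjusted p lay between 0.0115 and 0.656.

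The zeros of miR-501-3p can be set against miR-500a-3p and miR-502-3p, its near-identical neighbours, in the same libraries. miR-500b-3p, which differs from miR-501-3p at 1 of 19 aligned bases, was itself listed at 0 there. In WA replicates 1 and 2 miR-500a-3p and miR-502-3p together had 76 and 196 reads while miR-501-3p had 0, which allows a share of up to 3.95% and 1.53% of the 3 arms. miR-501-3p held 31.2%, 42.4% and 53.9% of the 3 arms in vehicle replicates 1 to 3, with 95% Wilson intervals of 28.2 to 34.3, 36.0 to 49.0 and 47.1 to 60.6, and 27.4% (24.3 to 30.7) in WA replicate 3. These libraries have the lowest totals of the 6, and the part of depth and of the counting of near-identical arms in these zeros was not tested. miR-502-3p held 75.0% and 78.6% of the 3 arms in WA replicates 1 and 2. It held 36.2%, 15.2% and 17.2% in vehicle replicates 1 to 3 and 29.8% in WA replicate 3. Summed, the 3 arms had vehicle values of 1185, 62.0 and 62.4 and WA values of 441, 350 and 557. Its log2 fold change was 1.40 (SE 1.26, limma adjusted p = 0.485), and 2.81 (SE 0.58, adjusted p = 0.0579) without vehicle replicate 1. It was 0.69 without vehicle replicate 2 or without vehicle replicate 3 (adjusted p = 0.785 and 0.781).

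**Figure D4:**
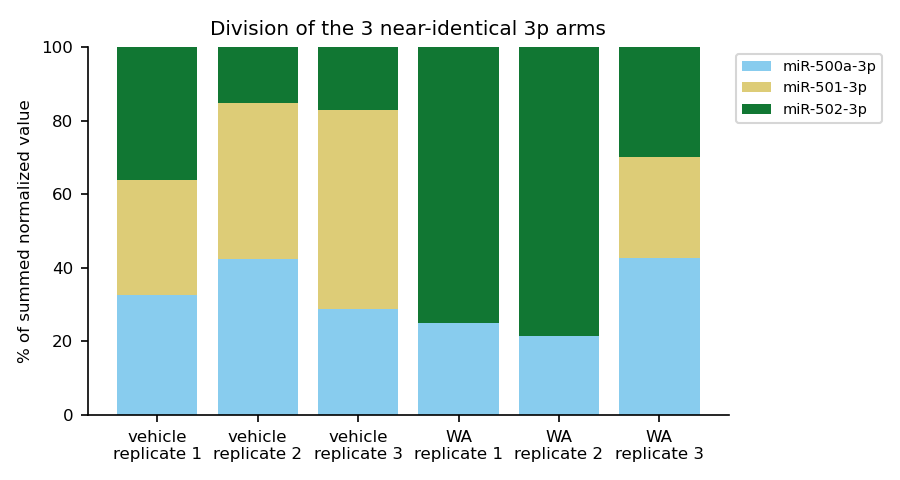
Stacked bars give the percentage of the summed normalized value of miR-500a-3p, miR-501-3p and miR-502-3p held by each arm in each library. miR-501-3p holds between 27.4% and 53.9% in 4 libraries and is listed at 0 in WA replicates 1 and 2, where miR-502-3p holds 75.0% and 78.6%.

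The balance of the arms of a hairpin, log2(5p value + 1) - log2(3p value + 1), compares strands within a library, so the size factor plays little part. Where an arm is at or near 0, as for miR-500b, the balance also depends on the size factor, through the pseudocount. Balances were compared by limma over the 99 hairpins of the table with both arms listed and a sum of both arms of 10 or more in 3 or more libraries. None of the 5 cluster hairpins passed 0.05 by adjusted p, beside 0.00% of all 99, and 1 of the 5 passed it by unadjusted p, beside 22.2%. With vehicle replicate 1 and WA replicate 3 both left out 2 of the 5, miR-500b and miR-501, were called, beside 45.5%. Both arms of miR-501 are listed at 0 in the WA libraries that remain, so its call is not interpreted. Every WA library lay above every vehicle library for miR-500a and miR-500b, as for 13.1% of hairpins, and below for miR-502, as for 16.2%.

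For miR-502 the balance was -3.19, -2.10 and -2.61 with vehicle and -4.17, -3.62 and -6.06 with WA, so the 3p arm was the larger throughout and more so with WA. The difference of -1.98 (SE 1.03) had a limma adjusted p of 0.311, and was -1.26 (adjusted p = 0.382) without WA replicate 3, whose 5p arm had 2 reads. The 5p arm held 9.69% (95% Wilson interval 7.01 to 13.2), 13.2% (5.75 to 27.3) and 7.89% (2.72 to 20.8) of the reads of both arms in the vehicle libraries. In the WA libraries it held 5.00% (1.71 to 13.7), 7.23% (4.18 to 12.2) and 0.897% (0.246 to 3.21), and most of these intervals overlap those of the vehicle libraries.

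For miR-500a it was -3.22, -2.62 and -2.23 with vehicle and -2.20, -0.63 and -1.99 with WA, where the 3p arm was still the larger. WA replicate 1 and vehicle replicate 3 differed by little. The difference was 1.09 (SE 1.01, limma adjusted p = 0.650), and it was 0.60 without WA replicate 2. With a pseudocount of 10 it was 0.42 and the groups overlapped. With vehicle the 5p arm held 9.52% (95% Wilson interval 6.75 to 13.3), 11.5% (6.72 to 19.1) and 14.5% (8.07 to 24.7). With WA it held 17.4% (6.98 to 37.1), 39.1% (28.5 to 50.9) and 19.9% (16.3 to 24.2) of the reads of both arms. All 3 vehicle intervals overlap that of WA replicate 1, on 4 of 23 reads, and none overlaps that of WA replicate 2. The difference of miR-500b was 4.89 (SE 1.52, adjusted p = 0.0894, unadjusted p = 0.0117 by limma), but 9.19 with a pseudocount of 0.1 and 1.70 with one of 10, since 1 of its arms is listed at 0 in 4 libraries. Without vehicle replicate 1 it was 3.33, the lowest value over the single omissions. It went from -5.47, -0.29 and -1.34 to 3.65, 2.67 and 1.24, on 3 to 32 reads of both arms with vehicle and 2, 3 and 32 with WA, and its 5p arm overlaps miR-500a-5p.

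The balance of miR-532 was 0.37, 4.16 and 3.08 with vehicle and 2.90, 4.57 and 2.62 with WA. The 5p arm held 56.3% (95% Wilson interval 51.9 to 60.6) of the reads in vehicle replicate 1 and from 86.1% to 96.1% elsewhere, so the excess of vehicle replicate 1 lay mainly in the 3p arm. The difference between groups was 0.83 (SE 1.28, limma adjusted p = 0.846). For miR-501 the balance was -0.90, -2.62 and -1.81 with vehicle and -3.40 in WA replicate 3. With both arms listed at 0 the balance of WA replicates 1 and 2 is 0 by construction, so its group difference of 0.64 is not interpreted.

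**Figure D5:**
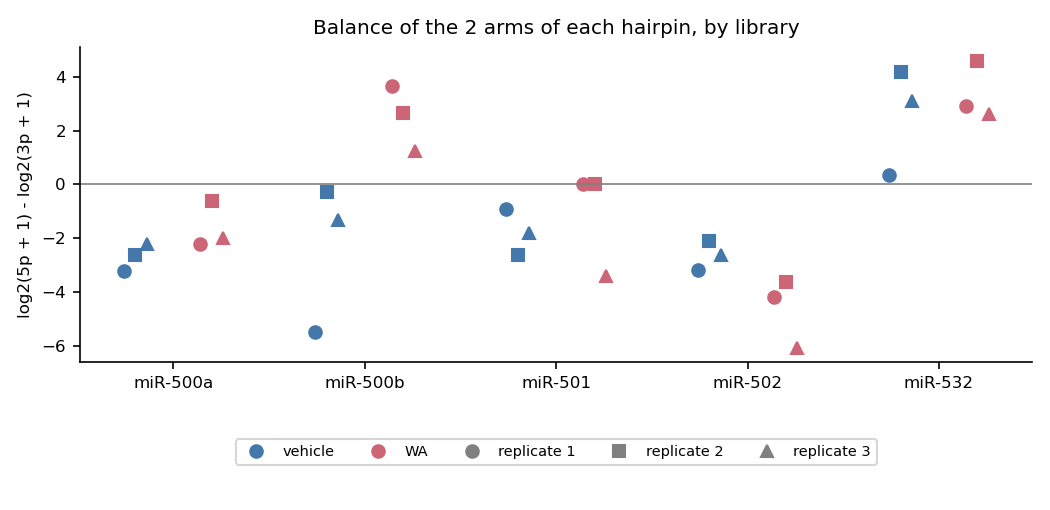
The vertical axis gives log2(5p + 1) - log2(3p + 1) in normalized values for the 5 hairpins with both arms listed, with vehicle libraries in blue, WA libraries in red and the replicate number as the symbol. The groups do not overlap for miR-500a, miR-500b and miR-502, and the points at 0 of miR-501 are libraries in which both arms are listed at 0.

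Across the 6 libraries the arms did not follow a single pattern. On the log scale miR-660-5p had Pearson correlations of 0.973 with miR-502-3p and 0.970 with miR-362-5p, and miR-532-5p of 0.907 with miR-500a-5p and 0.358 with miR-532-3p from its own hairpin. miR-501-3p had correlations of 0.931 with miR-501-5p and 0.874 with miR-500b-3p but of -0.151 with miR-502-3p. miR-501-3p, miR-501-5p and miR-500b-3p were all listed at 0 in WA replicates 1 and 2, and these values enter their correlations. All are descriptions over 6 libraries that share group, depth and the libraries that stand apart.

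By the same measure, the filtered rows outside the cluster most like miR-660-5p were miR-29b-1-5p (0.982), miR-193a-5p (0.978) and miR-190a-5p (0.976). Those most like miR-532-5p were miR-195-5p (0.947), miR-23a-3p (0.943) and miR-149-5p (0.925). For miR-500b-5p they were miR-15a-5p (0.958), miR-181c-5p (0.954) and miR-146a-5p (0.947), and for miR-501-3p they were miR-200b-3p (0.999), miR-429 (0.992) and miR-2116-3p (0.991). The last 3 were all listed at 0 in WA replicates 1 and 2, and miR-200b-3p had vehicle values of 1459, 65.4 and 63.9 and a value of 642 in WA replicate 3. miR-500b-5p itself lay under the filter. Its likeness rests on 0, 1 and 0 reads with vehicle and 2, 3 and 23 with WA.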

How the data were processed

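Small RNA libraries from 3 vehicle-treated and 3 WA-treated MDA-MB-231 cultures were used. According to the submitters' processing notes and the study's methods, the authors trimmed reads (Trim Galore), aligned them with Bowtie to GRCh38.p10, dropped those of other small RNA classes and assigned what was left to miRBase mature sequences. The authors then divided counts by a DESeq2 size factor per library, which gives the deposited signal. The rule for reads that match several miRNAs is not given in the sources used here. Columns the authors deposited for their own comparison (fold ratio, log2 fold change, raw and adjusted p-values) were not used.

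Values were multiples of 1 step per library for 100% of rows (tolerance 0.01 of a step). Too few values are low enough to use the steps as counts in a test, so the count-based tests planned were not run. The read numbers and Wilson intervals given above rest on the same steps, and hold only if 1 step is 1 read. Groups were compared with limma 3.58.1 (R 4.3.3) on log2(value + 1), with the variance trend, two-sided and unpaired, keeping values of at least 10 in at least 3 libraries, and single arms also by exact permutation. The fits of arms and of balances were also run on simulated counts in which some rows were given a known change. Those simulated libraries had equal depth and none stood apart, so they do not show how the fits behave on the libraries used here. Steps, sequences and figures used Python 3.11.15, numpy 2.4.6, scipy 1.17.1 and pandas 2.3.3. Mature sequences and hairpins are from RefSeq (GRCh38.p14), matched by name for 11 of 12 arms and 368 of 413 rows, and gene models from GENCODE release 44.

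The members, near-identical groups and tests were chosen with earlier results of these data known. All 12 arms, rows sharing a seed, and the 3 rows most like each of 4 arms are named. The count of rows raised in vehicle replicate 1 was chosen after the values were seen. Alternatives were other scalings, pseudocounts and filters, the replicate number as a block and each library left out, with 2 libraries left out together added later.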

Additional observations from a re-analysis of the deposited data

How the results depend on the processing

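No arm had a limma adjusted p under 0.05 under total-count or upper-quartile scaling, pseudocounts of 0.1 and 10, a value of 10 in every library (where 5 arms remained to test) or the replicate block. With no filter the number was 1 of 12, miR-500b-5p. It was between 0 and 1 over the 6 single omissions, with miR-502-3p called without vehicle replicate 1 and miR-501-3p without WA replicate 3. Median shifts over all rows were -0.91 with the deposited size factors, -0.85 with total-count scaling and -0.62 with upper-quartile scaling, and 8 of 9 arms were above 0 under each. Over the 6 single omissions 6 to 8 of the 9 were above 0 (6 without vehicle replicate 3, 7 without vehicle replicate 2 or WA replicate 3), and their median lay between 0.98 and 2.47, the latter without vehicle replicate 1. With vehicle replicate 1 and WA replicate 3 both omitted, an alternative chosen after seeing the data that leaves 2 libraries a group, 8 of 9 arms were called, 7 higher and miR-501-3p lower in WA, beside 25.4% and 46.5% of all rows. In that fit 2 of 5 arm balances (miR-500b and miR-501) and both sums were called, where the backgrounds were 45.5% and 71.7%. Both arms of miR-501 are listed at 0 in the WA libraries that remain. The call of miR-501-3p is thus a difference from libraries listed at 0, and that of the miR-501 balance is not interpreted. The number of arm balances called was 0 under every other alternative run, as was the number of sums called. Over the 6 single omissions the log2 fold change of hsa-miR-502-5p lay between -0.0805 and 2.23, that of miR-532-3p between -0.58 and 1.60, and the balance of miR-532 between -0.25 and 1.64. The cause was not tested. Same-numbered libraries had correlations of their deviations from the group means of -0.0692, 0.0571 and -0.0874. Since vehicle replicate 1 and WA replicate 3 stand apart, these values cannot decide whether the replicate numbers pair the libraries. With the replicate block 0 arms, 0 balances and 0 sums were called, while calls over all rows went from 18 to 24. Count-based tests were not run, since too few values are low enough to take the steps as counts, and the sum of miR-500a-5p and miR-500b-5p could not be fitted with a value of 10 in every library. Depth limits miR-500b-5p, miR-500b-3p and miR-502-5p, which had at most 34 reads in any library.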
